A study of Saccharomyces cerevisiae with 8 samples.

Results

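The 10 genes described here encode enzymes of sterol synthesis in budding yeast: ERG10, ERG13, HMG1, HMG2, IDI1, ERG20, ERG9, ERG1, ERG11 and ERG25. They were taken by their locus names, and all 195 lines of the deposited table that carry these names were used, of 76330 distinct sites in all. The set was chosen by what was measured at HMG2: in RNA pulled down with the antibody, 4 of its sites differed by at least 0.5 between strains without and with IME4. Those values are given as a description, and calls on them are counted without being read as a result.

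RNA of diploid SK1 yeast was fragmented with MazF, an RNase of bacterial origin that the name of the deposited table gives and the labels do not. It cuts RNA ahead of the sequence ACA and spares a site whose first A carries N6-methyladenosine (m6A). Strains labelled IME4-KO (KO) had both copies of IME4, the gene of the yeast mRNA m6A methyltransferase, replaced with HIS3 (ime4::HIS3/ime4::HIS3), and strains labelled WT kept IME4. Both genotypes were MAT a/alpha and shared lys2/lys2, ho::LYS2/ho::LYS2 and ndt80::LEU2/ndt80::LEU2, so NDT80, which drives the exit from pachytene, was disrupted in the WT strain too. Polyadenylated RNA was taken after induction of meiosis, at a time that the labels do not give, and was measured as input and after enrichment with an anti-m6A antibody (IP). The groups KO input, WT input, KO IP and WT IP had 2 biological replicates apiece. The values are normalized cleavage efficiencies, a fraction per site and library. Higher values were read as more cutting, which the name of the quantity gives and the sources used here do not state.

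Of the 27 listed sites of IME4, 2 and 0 were measured in the KO inputs, against 21 and 23 in the WT inputs, and 0 in both KO IP libraries, against 16 and 24 in WT IP. Over the whole table, the KO inputs measured 61515 and 62063 sites, the WT inputs 45384 and 62508, the KO IP libraries 27723 and 37488, and the WT IP libraries 33351 and 43581. Each column has a ceiling, its highest value, which 3.23% to 9.80% of its sites share, so replicates that both stand there can differ by more than they show. The table holds fractions without reads or transcript levels. The depth per value is therefore unknown, and the meiotic state of the cells was not checked.

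Sterol synthesis starts from acetyl-CoA. The mevalonate pathway builds isoprene units, HMG-CoA reductase catalyses its main regulated step, and the later enzymes join the units to squalene and close and trim the ring system to make ergosterol, the main sterol of yeast membranes. Yeast has a pair of HMG-CoA reductases, Hmg1 and Hmg2. Hmg2 is the isozyme whose degradation at the endoplasmic reticulum is regulated by pathway products. Several of the later enzymes use oxygen and haem or iron.

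HMG2 (YLR450W, chromosome 12, plus strand) had 38 listed sites, the most of the 10 genes. Its sites are named by their offset, the distance in nt downstream of the first base of the gene model. Coordinates are those of the deposited table, whose build is not given in the sources used here, and exon, intron and UTR are not annotated there. The KO inputs measured 35 sites each, against 34 and 38 in the WT inputs, and the KO IP libraries measured 18 and 19, against 20 and 28 in WT IP. In all 8 libraries 11 sites were measured.

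The widest difference within HMG2 was at +2445 (chromosome 12, position 1032068). Cleavage efficiency there was 0.922 and 0.926 in KO IP, against 0.0867 and 0.166 in WT IP. In input it was 0.854 and 0.880 in KO, against 0.346 and 0.401 in WT. The KO libraries had 0.854 or more at this site in both fractions, and all WT values lay below all KO values. The input difference, KO minus WT, was 0.493 (SE 0.0361, limma's adjusted p = 0.000595).

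At +1971 (position 1031594) KO IP had 0.967 and 0.968, against 0.238 and 0.225 in WT IP. In input KO had 0.951 and 0.932, against 0.703 and 0.670 in WT, a difference of 0.255 (SE 0.0237, limma's adjusted p = 0.00114). The site +1982 lies 11 nt further on. It stood at 1 in both KO IP libraries, their ceiling, against 0.540 and 0.443 in WT IP, while in input KO had 0.989 and 0.995, against 0.933 and 0.947 in WT. The genotypes lay apart at +1982 in both fractions, but the input difference of 0.0523 did not pass the test (limma's adjusted p = 0.319).

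At +491 (position 1030114) KO IP had 0.845 and 0.830, against 0.142 and 0.0716 in WT IP. In input KO had 0.815 and 0.849, against 0.597 and 0.428 in WT. The input difference was 0.320 (SE 0.0592, limma's adjusted p = 0.0110), with the WT replicates further from each other than the KO replicates. That call ended without KO input replicate 1 (adjusted p = 0.0546) or replicate 2 (0.0699) and when the 4 input libraries were fitted alone (0.0578).

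These 4 sites, at +491, +1971, +1982 and +2445, were the HMG2 sites with an IP difference of at least 0.5, which is how the gene was noticed. The smallest of the 4 was 0.508, at +1982, and the next HMG2 site, +2060, had 0.273. Over all sites measured in 8 libraries, 4.77% had an IP difference that large. The opposite direction was seen in IP too. At +403 KO IP had 0.232 and 0.297, against 0.563 and 0.536 in WT IP, and at +3189 KO IP had 0.439 and 0.666, against 0.877 and 0.765. In input the genotypes overlapped at both sites, with means of 0.198 in each genotype at +403, and of 0.355 in KO and 0.341 in WT at +3189.

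**Figure D1:**
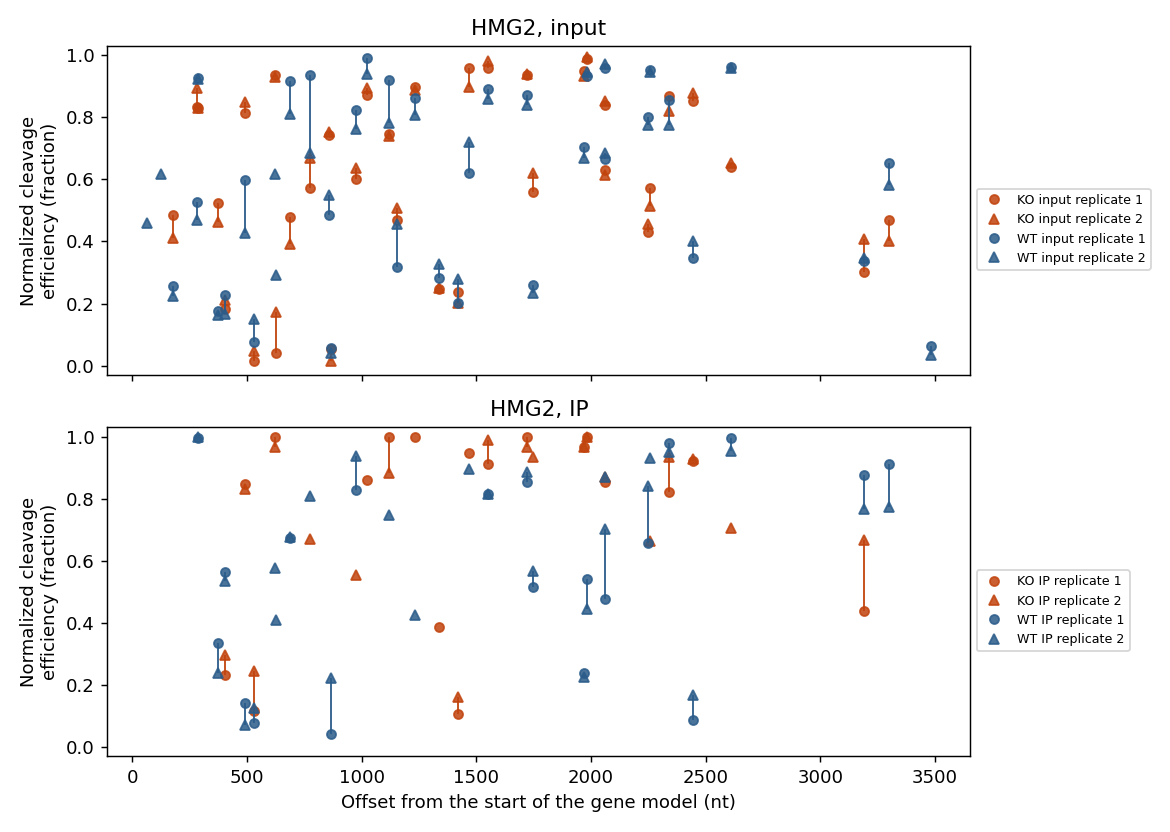
Normalized cleavage efficiency (fraction) of each HMG2 site against its offset from the start of the gene model (nt), in input (upper panel) and IP (lower panel). Points are single libraries, orange for KO and blue for WT, and vertical lines join the 2 replicates. In IP, KO lies far above WT at +491, +1971, +1982 and +2445, while in input the genotypes also cross in the other direction, as at +2258.

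**Figure D2:**
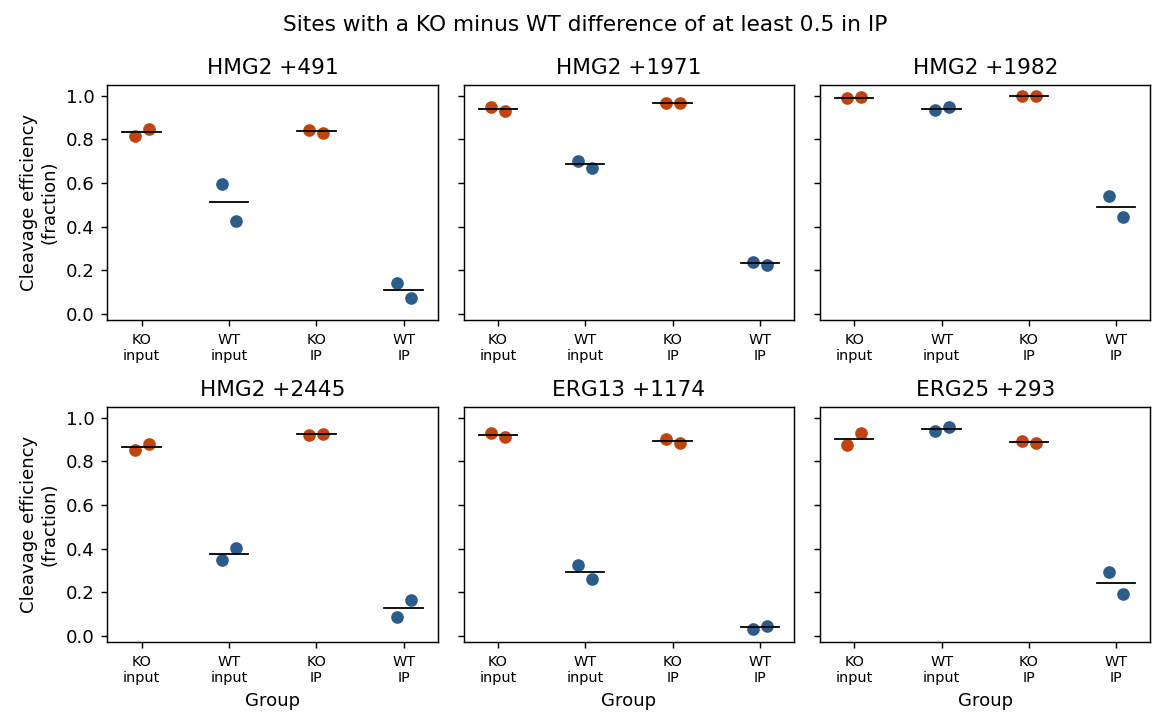
Cleavage efficiency (fraction) in the 8 libraries at 4 HMG2 sites, ERG13 +1174 and ERG25 +293. Points are libraries and bars are means of 2. WT IP is the lowest group in every panel, and at ERG25 +293 the input libraries of both genotypes have 0.874 or more.

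Input RNA was not used directly to pick the genes, so the difference between KO and WT was tested there. Input is not independent of that choice. The genotypes lay apart in the same direction in both fractions at 51.8% of all tested sites, and in opposite directions at 5.66%. Input calls at the HMG2 sites that drew notice are therefore no independent support for them. A limma fit over the 17376 sites measured in all 8 libraries called 32.2% of them, 15.6% higher and 16.6% lower in KO (adjusted p below 0.05). The 10 genes had 73 such sites, of which 11 were higher in KO, 24 were lower and 38 did not pass, or 47.9% called. Without HMG2, 62 sites remained, of which 8 were higher, 24 were lower and 30 did not pass, or 51.6% called. The median difference over the 73 sites was -0.0277, and -0.0746 without HMG2, against -0.000114 over all tested sites. Without KO input replicate 1 or replicate 2 the count for the 10 genes was 19. Over all sites the count was 2962 and 2871 without these libraries, against 5591 with them.

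A fit of the 4 input libraries alone reached more of these genes, because IP libraries measured fewer sites. It tested 42028 sites and called 25.0%, 11.0% higher and 14.0% lower in KO. Of the 161 sites of the 10 genes, it called 21 higher and 40 lower in KO, and 100 did not pass. The genotypes did not overlap at 53 sites with KO above WT and at 84 with KO below, together 85.1%. Of all sites, 70.6% did not overlap, 33.7% with KO above and 36.9% with KO below. HMG1, HMG2, ERG9, ERG1, ERG20 and ERG11 are described with this fit where the larger one holds few of their sites.

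Within HMG2 the input differences ran in both directions along the model. The fit of 8 libraries called 3 of 11 sites, all higher in KO (+491, +1971 and +2445). All of them are among the sites whose IP differences picked the gene. The fit of the 4 input libraries called 9 higher and 6 lower in KO, of 33. The higher ones besides +1971 and +2445 were +283 (0.366), +1746 (0.344), +373 (0.325), +1468 (0.258), +857 (0.230), +177 (0.209) and +2060 (0.171), given as KO minus WT, with limma's adjusted p from 0.0140 to 0.0457.

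Of the 6 HMG2 sites that fell in KO input, 4 lay on either side of +2445, which rose. At +2258 (position 1031881) KO input had 0.572 and 0.513, against 0.951 and 0.946 in WT input. Its neighbour +2248 had 0.429 and 0.456, against 0.801 and 0.775, and +2062 had 0.631 and 0.613, against 0.959 and 0.971. At +2610 KO input had 0.640 and 0.653, against 0.962 and 0.958 in WT input. At each of these 4 sites the replicates of a genotype lay close together and the genotypes were far apart, with adjusted p of 0.0111 to 0.0113 in limma's fit of the 4 input libraries. The remaining sites, +686 (-0.429, adjusted p = 0.0237) and +975 (-0.175, adjusted p = 0.0461), lay nearer the start of the model.

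Neighbouring sites could differ in direction at very short distance. HMG2 +2060 was higher in KO input (0.838 and 0.853, against 0.665 and 0.684 in WT input), while +2062, 2 nt away, was lower. HMG2 +283 had 0.833 and 0.895 in KO input, against 0.527 and 0.469 in WT input, and +285 had 0.830 and 0.829, against 0.926 and 0.925. The difference at +285, -0.0959, did not pass (limma's adjusted p = 0.0523). Across the 10 genes, 21 pairs of neighbouring sites measured in the 4 inputs lay within 30 nt of each other. In 7 of these 21 the genotypes did not overlap at either site and differed in opposite directions, against 740 (25.1%) of the 2943 close pairs over all sites. Some of these differences were small and did not pass, as at ERG10 +1263 (-0.0277) and ERG13 +1412 (-0.0123). How the efficiency of one site depends on a close neighbour is not given in the sources used here, and its part in these values was not tested.

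HMG1 (YML075C, chromosome 13, minus strand), the other HMG-CoA reductase gene, had 33 listed sites and none measured in all 8 libraries. The KO IP libraries measured 3 and 7 of them, against 6 and 9 in WT IP, so HMG1 has no IP comparison. The KO inputs measured 30 and 32 sites, against 21 and 31 in the WT inputs. The fit of the 4 input libraries tested 20 sites and called 1 in each direction. At +1561 (position 125266) KO input had 0.893 and 0.888, against 0.336 and 0.513 in WT input, a difference of 0.466 (SE 0.0715, limma's adjusted p = 0.0302). At +1824 (position 125003) KO input had 0.299 and 0.324, against 0.682 and 0.850 in WT input, a difference of -0.455 (SE 0.0688, adjusted p = 0.0294). At both sites the genotypes lay apart and the WT replicates were the more scattered. WT IP had 0.721 and 0.960 at +1824, where neither KO IP library had a value. The genotypes overlapped at 9 of the 20 HMG1 sites and at 5 of the 33 HMG2 sites, while over all sites 70.6% did not overlap. A difference between the genes was not tested. HMG1 sites +355 and +546 were measured in both KO inputs and in neither WT input, with means of 0.910 and 0.967.

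Upstream of the reductases, ERG10 encodes acetoacetyl-CoA thiolase and ERG13 encodes HMG-CoA synthase. Of 11 tested sites of ERG10 (YPL028W, chromosome 16), 2 rose in KO input, 5 fell and 4 did not pass. ERG10 +831 (position 502378) had 0.695 and 0.693 in KO input, against 0.239 and 0.190 in WT input, a difference of 0.479 (SE 0.0260, limma's adjusted p = 0.000327). In IP the same site had 0.936 in both KO libraries, against 0.790 and 0.768 in WT. ERG10 +1030 had 0.481 and 0.409 in KO input, against 0.903 and 0.866 in WT input (difference -0.440, adjusted p = 0.00173), and +636 had 0.425 and 0.440, against 0.788 and 0.797 (-0.360, adjusted p = 0.00167). The genotypes were apart at all 3 sites in input and in IP. The widest IP difference of ERG10 was at +636, with 0.126 and 0.224 in KO IP, against 0.609 and 0.649 in WT IP.

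ERG13 (YML126C, chromosome 13) had 13 tested sites, of which 5 rose in KO input, 5 fell and 3 did not pass. Its site +1174 (position 27340) had the largest rise of the 73 sites and the only one of at least 0.5, a size that 1.61% of all tested sites reached. KO input had 0.931 and 0.910 there, against 0.324 and 0.262 in WT input. KO IP had 0.904 and 0.886, against 0.0309 and 0.0471 in WT IP. WT efficiency was lowest after pulldown, KO had 0.886 or more in both fractions, and the input difference was 0.627 (SE 0.0291, limma's adjusted p = 0.000241). The IP difference of 0.856 was the widest of the 10 genes in that fraction, above all HMG2 sites.

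ERG13 also held the site with the widest IP difference in the other direction among the 73. At +319 KO IP had 0.241 and 0.184, against 0.762 and 1 in WT IP, with WT replicate 2 at its ceiling. KO input had 0.355 and 0.372, against 0.794 and 0.936 in WT input, a difference of -0.502 (SE 0.0863, limma's adjusted p = 0.00852). It did not pass on the logit scale (adjusted p = 0.103), nor with either KO input library left out (0.0549 for replicate 1, 0.0520 for replicate 2). At +1059 KO input had 0.594 and 0.540, against 0.958 and 0.966 in WT input (-0.395, adjusted p = 0.000703). Sites that rose and sites that fell were interspersed along ERG13, with +1059 and +1174 115 nt apart.

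IDI1, ERG20 and ERG9 encode the enzymes that isomerise the isoprene unit, join units to farnesyl diphosphate and join that to squalene. All 3 called sites of IDI1 (YPL117C, chromosome 16) were lower in KO input and 2 did not pass. At +696 (position 337526) KO input had 0.398 and 0.455, against 0.802 and 0.886 in WT input (-0.417, SE 0.0448, limma's adjusted p = 0.00180). At +778 KO input had 0.599 and 0.568, against 0.918 and 0.938 in WT input (-0.344, adjusted p = 0.00756), and KO IP had 0.364 and 0.535, against 0.997 and 0.952 in WT IP, where replicate 1 was at its ceiling. At +558 the input difference was -0.182 (adjusted p = 0.00828). The calls at +778 and +558 each ended without 1 KO input library (replicate 2 at +778 with adjusted p = 0.0541, replicate 1 at +558 with 0.0595). None of the 7 IDI1 sites measured in the 4 inputs had KO above WT: KO lay below WT at 6 and the genotypes overlapped at 1. Over all sites KO lay below WT at 36.9% and above at 33.7%. The fit of the 4 input libraries called 4 of the 7 lower, and 3 did not pass. Among these, the WT input replicates were scattered at +458 (0.457 and 0.796) and +991 (0.576 and 0.846). Over the 5 sites measured in 8 libraries the median efficiency was 0.599 and 0.568 in KO input, against 0.878 and 0.886 in WT input.

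ERG20 (YJL167W, chromosome 10), the farnesyl diphosphate synthase gene, differed in which libraries measured it. Of 16 listed sites the KO inputs measured 15 each, against 7 and 11 in the WT inputs, and the KO IP libraries measured 13 and 14, against 5 in each WT IP library. It was the only one of the 10 genes with more sites measured in both KO libraries than in both WT libraries in input and in IP. Of gene models with at least 10 listed sites, 6.27% had that pattern, although the KO IP libraries measured fewer sites than the WT IP libraries on the whole. Sites +123, +497 and +560 were measured in the 4 KO libraries and in no WT library. Efficiency at +123 was 0.912 and 0.923 in KO input and 0.948 and 0.938 in KO IP. How much transcript there was cannot be read from a missing value, and fewer cells with a transcript cannot be told apart from less of it per cell.

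Of the 3 ERG20 sites measured everywhere, +1074 (position 110096) fell, with 0.460 and 0.446 in KO input, against 0.631 and 0.735 in WT input (-0.230, SE 0.0402, limma's adjusted p = 0.00904). That call ended without KO input replicate 1 (0.0523) or replicate 2 (0.0607). In IP the site had 0.541 and 0.496 in KO, against 0.828 and 0.806 in WT. The fit of the 4 input libraries tested 7 ERG20 sites and called 1 in each direction, +1074 again and +366. At +366, chosen after its values were seen, KO input had 0.991 and 0.989, against 0.878 and 0.893 in WT input (0.104, limma's adjusted p = 0.0487). The last listed site, +1230, was low in WT IP, at 0.0745 and 0.121, and had no KO IP value. The only input value there was 0.884, in KO replicate 1.

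**Figure D3:**
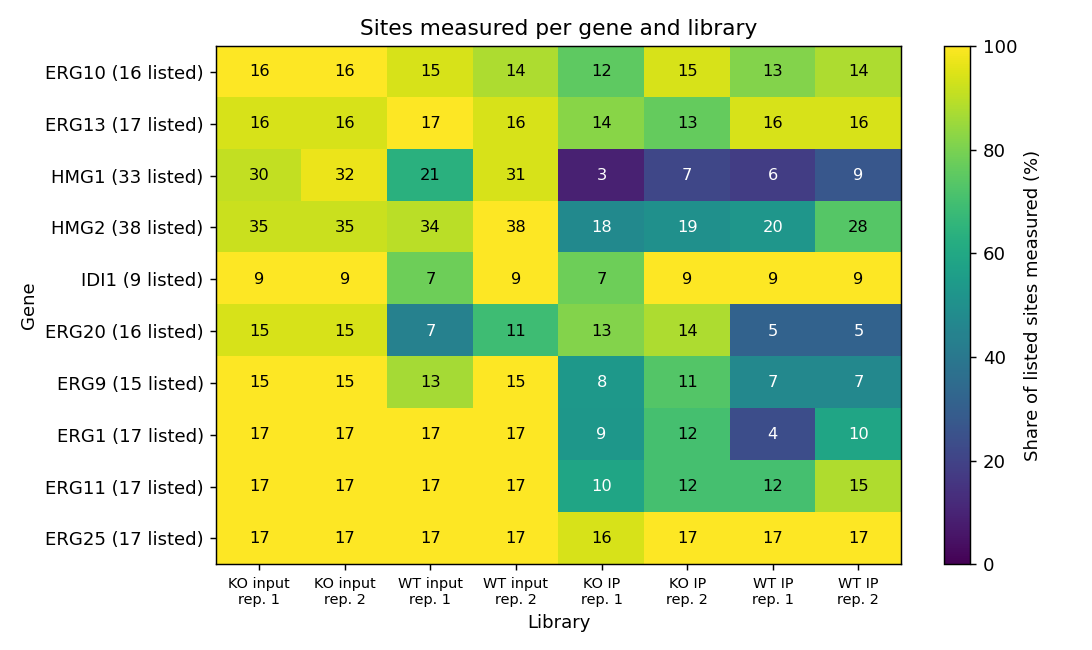
Number of sites measured for each gene (rows) in each library (columns, KO left of WT within input and within IP), with colour giving the share of the gene's listed sites in percent. ERG20 has 13 to 15 sites in KO libraries and 5 to 11 in WT libraries, and HMG1 has at most 9 of 33 in any IP library.

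ERG9 (YHR190W, chromosome 8), the squalene synthase gene, had 3 sites in all 8 libraries and none passed in input. The largest difference was at +1466, with 0.922 and 0.980 in KO input, against 0.819 and 0.815 in WT input (0.134, limma's adjusted p = 0.206). KO IP had 0.902 and 0.914 there, against 0.380 and 0.600 in WT IP. Other ERG9 sites were low in WT IP too, with 0.139 and 0.118 at +927, 0.229 and 0.236 at +1250 and 0.409 and 0.336 at +1272. At +927 and +1250 KO IP was measured in replicate 2 alone, with 0.418 and 0.904, and at +1272 in replicate 1 alone, with 0.877. In the fit of the 4 input libraries 1 ERG9 site was higher in KO and 2 were lower, of 13. KO input had 0.944 and 0.946 at +1250, against 0.613 and 0.392 in WT input (0.442, adjusted p = 0.0482), and 0.478 and 0.421 at +804, against 0.890 and 0.869 (-0.430, adjusted p = 0.0111). At +927 the input ran the other way, with 0.575 and 0.592 in KO, against 0.992 and 0.909 in WT (-0.367, adjusted p = 0.0161), where WT replicate 1 was at its ceiling. The ERG9 sites other than +1466 were chosen after their values were seen.

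ERG1, ERG11 and ERG25 encode squalene epoxidase, lanosterol demethylase and the C-4 methyl sterol oxidase. ERG1 (YGR175C, chromosome 7) was measured at all 17 sites in every input library, while the KO IP libraries measured 9 and 12, against 4 and 10 in WT IP. The fit of the 4 input libraries called 2 sites higher and 5 lower in KO. The largest fall of the 161 sites was at ERG1 +1432 (position 861181), with 0.257 and 0.159 in KO input, against 0.831 and 0.920 in WT input (-0.667, SE 0.0550, limma's adjusted p = 0.0124). At +547 KO input had 0.258 and 0.223, against 0.784 and 0.925 in WT input (-0.614, adjusted p = 0.0146). At +613, 66 nt from it, KO input had 0.940 and 0.933, against 0.539 and 0.676 (0.329, adjusted p = 0.0373). In KO IP +1432 had 0.167 and 0.214, close to KO input, and WT IP had no value. These ERG1 sites were chosen after their values were seen. By the naming rule, ERG1 +1678 (-0.194, adjusted p = 0.0344) and +1590 (-0.0911, adjusted p = 0.0394) passed in the fit of 8 libraries, and both calls ended without either KO input library (adjusted p = 0.125 to 0.158) and in the fit of the 4 input libraries (0.0669 and 0.0589). The widest IP difference of ERG1 was also at +1678, with 0.261 and 0.151 in KO IP, against 0.362 and 0.398 in WT IP.

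ERG11 (YHR007C, chromosome 8), the target of azole antifungals, was measured at all 17 sites in every input library. Of its 8 sites in all 8 libraries, 1 rose, 2 fell and 5 did not pass. Of the 3 calls, those at +1160 and +1730 were close to the threshold. ERG11 +1668 had 0.558 and 0.579 in KO input, against 0.904 and 0.737 in WT input (-0.252, SE 0.0590, limma's adjusted p = 0.0240). The other calls were +1160 (-0.255, adjusted p = 0.0493) and +1730 (0.119, adjusted p = 0.0482). All 3 ended without either KO input library, with adjusted p of 0.0878 to 0.220. The site +271, chosen after its values were seen, had 0.779 and 0.799 in KO input, against 0.407 and 0.445 in WT input (0.363, adjusted p = 0.0111 in the fit of the 4 input libraries). The widest IP difference of ERG11 was at +835, with 0.268 and 0.389 in KO IP, against 0.831 and 0.558 in WT IP. The last listed site, +1983, had 0.173 and 0.153 in WT IP and no KO IP value, while KO input had 0.587 and 0.611 there, against 0.646 and 0.765 in WT input.

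ERG25 (YGR060W, chromosome 7) was the most fully measured gene, with 16 of 17 sites in all 8 libraries. None of the 16 was called higher in KO input, 6 were called lower and 10 did not pass. Over all tested sites 15.6% were called higher and 16.6% lower. The remaining site, +1298, chosen after its values were seen, had 0.421 and 0.437 in KO input, against 0.319 and 0.326 in WT input, and passed in the fit of the 4 input libraries (0.106, limma's adjusted p = 0.0474). Called or not, KO lay above WT in input at 6 of the 17 sites and below at 11. At +210 (position 614122) KO input had 0.284 and 0.353, against 0.907 and 0.883 in WT input, a difference of -0.576 (SE 0.0310, limma's adjusted p = 0.000322). KO IP had 0.439 and 0.412 there, against 0.906 and 0.909 in WT IP. The WT libraries of both fractions lay within a narrow range, well above all KO libraries. At +1118 KO input had 0.487 and 0.545, against 0.871 and 0.803 (-0.321, adjusted p = 0.00298), and at +992 it had 0.338 and 0.289, against 0.536 and 0.523 (-0.216, adjusted p = 0.00482).

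At ERG25 +293 and +785 the WT IP libraries had the lowest values and the other libraries stood well above them. At +293 (position 614205) KO IP had 0.894 and 0.885, against 0.295 and 0.191 in WT IP, while KO input had 0.874 and 0.928, against 0.940 and 0.960 in WT input. The input difference of -0.0490 did not pass (limma's adjusted p = 0.412). At +785 KO IP had 0.787 and 0.814, against 0.364 and 0.559 in WT IP, while KO input had 0.794 and 0.768, against 0.872 and 0.914 in WT input. The neighbour of +293 at +281, 12 nt before it, had the opposite direction in IP, with 0.0415 and 0.0200 in KO IP, against 0.446 and 0.495 in WT IP. In input +281 had 0.0389 and 0.0259 in KO, against 0.184 and 0.208 in WT, and fell by 0.164 (adjusted p = 0.00772).

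**Figure D4:**
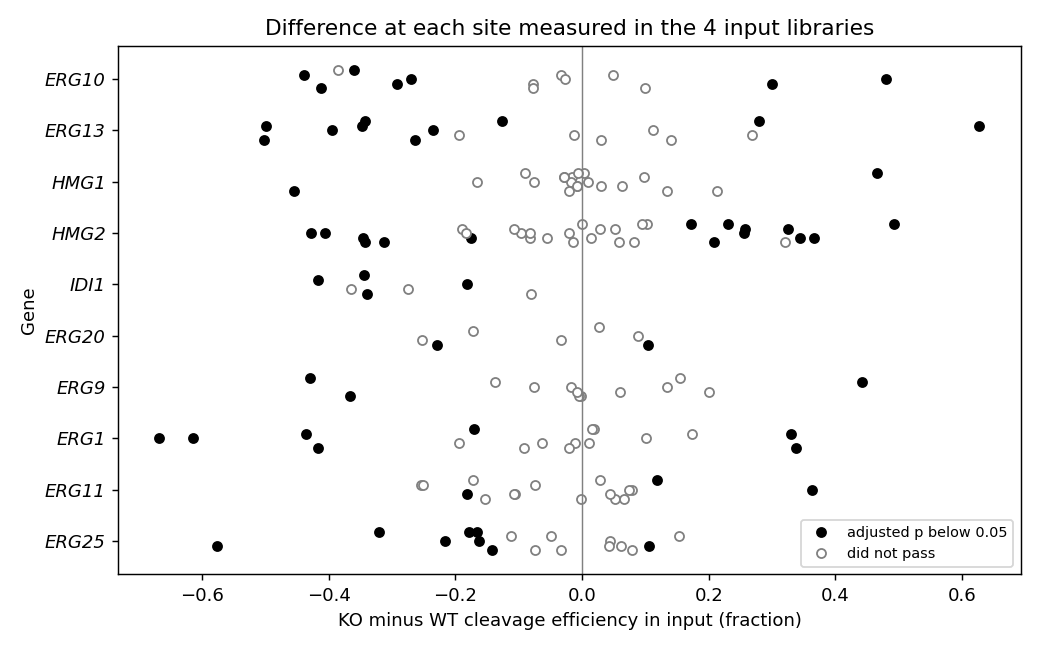
KO minus WT cleavage efficiency in input (fraction, x axis) at every site of each gene (rows) measured in the 4 input libraries. Filled points passed limma's test in that fit and open points did not. IDI1 has no point above 0, HMG2 has 9 filled points above and 6 below, and ERG1 +1432 lies furthest to the left.

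In IP, the fit of 8 libraries called 41.3% of all sites, 17.0% higher and 24.3% lower in KO. Of the 73 sites of the 10 genes, 16 were higher in KO IP, 25 were lower and 32 did not pass. This contrast brought HMG2 to notice, so the counts describe the genes and nothing is read from them. HMG2 had 7 higher and 2 lower of 11, ERG10 had 4 and 4 of 11, ERG13 had 1 and 5 of 13, and IDI1 had 0 and 3 of 5. ERG20 had 0 and 1 of 3, ERG9 had 1 and 0 of 3, ERG1 had 0 and 2 of 3, ERG11 had 1 and 3 of 8, and ERG25 had 2 and 5 of 16. The 7 higher sites of HMG2 include the 4 whose IP differences picked the gene. Besides the 4 sites of HMG2, KO exceeded WT in IP by at least 0.5 at ERG13 +1174 and ERG25 +293, and KO was that far below WT at ERG13 +319 (-0.668) and IDI1 +778 (-0.525). At 49 of the 73 sites the genotypes did not overlap in either fraction and differed in the same direction, against 51.8% of all tested sites. At 6 sites, against 5.66% of all tested sites, they differed in opposite directions. Whether an IP library and an input library share a culture is not given in the labels.

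**Figure D5:**
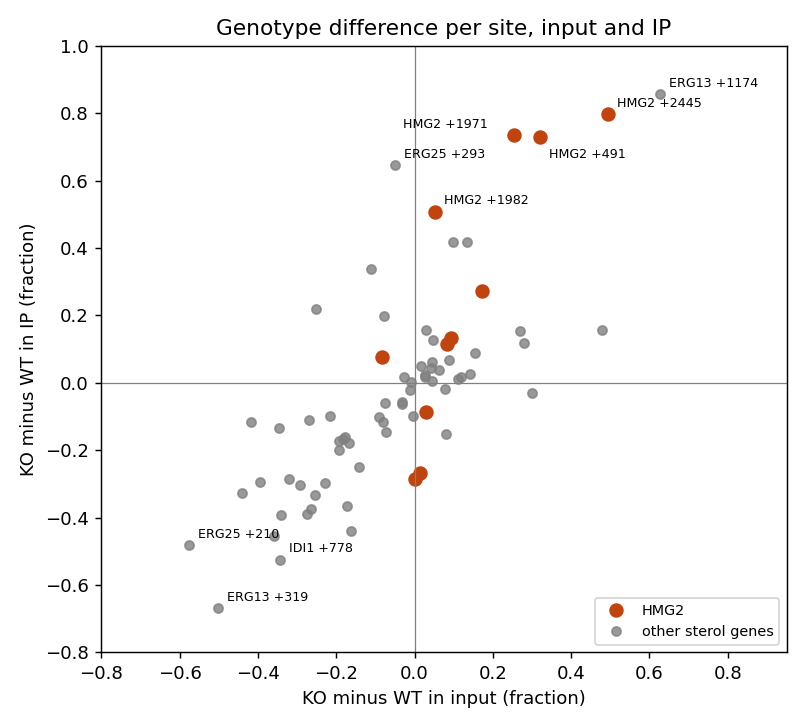
KO minus WT cleavage efficiency (fraction) in IP (y axis) against input (x axis) at the 73 sites measured in all 8 libraries, orange for HMG2 and grey for the other genes. ERG13 +1174 and HMG2 +2445 are far above 0 in both fractions, while ERG25 +293 and HMG2 +1982 lie near 0 in input and high in IP.

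Position within the model was compared as a description. Of the 66 sites in the first 50% of their models, measured up to the last listed site, KO lay below WT in input at 39 (59.1%) and above at 20 (30.3%). Of the 95 sites further on, KO lay below at 45 (47.4%) and above at 33 (34.7%). Over all sites the corresponding shares were 37.9% below and 31.8% above in the first 50%, and 36.4% and 34.6% further on. Sites of one gene share transcripts and are not independent.

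The rest of the pathway was read from a list of 26 genes of mevalonate, late sterol and branch enzymes and of regulators. They had 364 listed sites, of which 118 were measured in all 8 libraries. In input 15 of these were higher in KO, 20 were lower and 83 did not pass (29.7% called). Over all tested sites 32.2% were called, 15.6% higher and 16.6% lower in KO. Among the called sites of the 26 genes ERG8, the phosphomevalonate kinase gene, had the largest difference, with 0.269 and 0.252 in KO input at +1216, against 0.723 and 0.803 in WT input (-0.502, SE 0.0335, limma's adjusted p = 0.000496). HRD3 +1283, in a gene of the ubiquitin ligase complex that degrades Hmg2, had 0.497 and 0.527 in KO input, against 0.992 and 0.942 in WT input (-0.455, adjusted p = 0.000681), with WT replicate 1 at its ceiling. CUE1, whose product recruits the ubiquitin-conjugating enzyme Ubc7, fell by 0.408 at +442 (adjusted p = 0.00141). The sterol acyltransferase gene ARE2 fell by 0.446 at +1837, the methyltransferase gene ERG6 fell by 0.396 at +253 and the isomerase gene ERG2 fell by 0.370 at +194 (adjusted p = 0.000515, 0.00118 and 0.00995). ERG5, the C-22 desaturase gene, rose by 0.373 at +264, and NSG2, which encodes an Insig-related protein, rose by 0.350 at +77 (adjusted p = 0.00757 and 0.0237). The calls at ERG5 +264 and ERG2 +194 ended without KO input replicate 2 (adjusted p = 0.0514 and 0.0652). The call at NSG2 +77 ended without KO input replicate 1 (0.109) or 2 (0.103) and in the fit of the 4 input libraries (0.0869).

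The fit of the 4 input libraries tested 279 sites of these 26 genes. It called 33 higher and 39 lower in KO, while 207 did not pass. That was 25.8% called, against 25.0% over all sites of the same fit. This fit held larger differences than the fit of 8 libraries, some of them in the other direction within the same gene. The sites given here were chosen after their values were seen. ERG2 +719 had 0.904 in both KO inputs, against 0.337 and 0.316 in WT input (0.578, limma's adjusted p = 0.0111). CUE1 +665 had 0.839 and 0.974 in KO input, against 0.346 and 0.350 in WT input (0.559, adjusted p = 0.0152). ERG5 +1587 had 0.334 and 0.332 in KO input, against 0.824 and 0.855 in WT input (-0.506, adjusted p = 0.0111). Each of these 3 sites ran against the site of its gene named above, and the genotypes lay far apart at all of them. The sterol regulator genes UPC2 and ECM22 had no site measured in all 8 libraries. The largest difference of the 279 sites was at ECM22 +2278, with 0.850 and 0.910 in KO input, against 0.269 and 0.183 in WT input (0.654, adjusted p = 0.0111). Falls of over 0.5 were also called at ERG4 +1238 (-0.546) and HRD1 +570 (-0.543).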

How the data were processed

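Cleavage at ACA sites was measured in 8 libraries, 2 per group. The authors deposited normalized cleavage efficiencies as a fraction, per the name of the deposited table, and their formula, normalization, depth minimum and genome build are not stated there or in the labels. Per the submitters' processing notes, bedtools 2.26.0 and STAR 2.5.3a were used, for steps that are not named. The table also holds a score column, deposited as 0 in every line and not used. Of 77601 lines for 6104 gene models, 1 line was kept per position and strand (76330 sites), and no line of the 10 genes shared a position. All 36 locus names of the genes used matched R64 symbols (RefSeq), used for names only.

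The untransformed fractions of sites measured in all 8 libraries entered a limma model of 4 group means (R 4.3.3, limma 3.58.1), which left 4 residual degrees of freedom beside a prior of 1.72. A second fit used the 4 input libraries alone. Tests were two-sided, with Benjamini-Hochberg adjustment over all sites of a contrast and a threshold of 0.05. With 2 libraries per group, variances rest on the prior as well. The genes, lists and tests were chosen with earlier results of these data known.

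Named sites are all HMG2 and HMG1 sites called in input, up to 3 per other gene by size, each gene's widest IP difference, and for the 26 further genes the largest called site of 8. Sites measured in 1 genotype alone are named for some genes. Other sites were chosen after their values were seen, and not all are marked so. Among those without a mark are HMG2 +285, +403 and +3189 and ERG25 +281. Alternatives were a logit scale (offset 0.01), a mean of at least 0.1, sites in at least 6 of 8 libraries, quantile normalization, a robust and trended prior, the replicate number as a block, and each library left out.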

Additional observations from a re-analysis of the deposited data

Results flagged for a closer look

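At 6 of the 73 sites the KO and WT libraries did not overlap in either fraction and differed in opposite directions, against 5.66% of all tested sites. The difference between the fractions was not tested. KO minus WT in IP less KO minus WT in input was 0.696 at ERG25 +293, 0.471 at ERG11 +1668, 0.451 at ERG25 +785 and 0.275 at ERG10 +686, where KO was higher than WT in IP and lower in input. It was -0.232 at ERG11 +1097 and -0.0974 at ERG25 +887, where KO was lower in IP and higher in input. In the fit of 8 libraries both genotype differences passed only at ERG10 +686 and ERG11 +1668. At ERG25 +293 and +785 the IP difference alone passed, and at ERG11 +1097 and ERG25 +887 neither did. At ERG25 +785 KO IP had 0.787 and 0.814, against 0.364 and 0.559 in WT IP, and KO input had 0.794 and 0.768, against 0.872 and 0.914 in WT input. At ERG11 +1668 KO IP had 0.642 and 0.615, against 0.371 and 0.448 in WT IP.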

How the results depend on the processing

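The number of input calls fell most when a KO input library was left out. Replicates correlated at 0.984 in KO input and 0.929 in WT input, and each site has 1 variance for all groups. The part of this in the counts was not tested. Leaving out single libraries gave 2871 to 5646 calls over all sites (5591 with all libraries), 19 to 35 for the 10 genes (35) and 14 to 40 for the other pathway genes (35), with the lowest counts without KO input replicate 2, and for the 10 genes without either. Same-numbered libraries share only a number: their deviations from the group means correlated at -0.0164 to 0.0786 over sites. With the replicate block nested in genotype the counts were 3131, 21 and 20, and with the plain replicate block 5285, 29 and 32. The 4 input libraries alone gave 10508, 61 and 72 calls, over more sites tested. Sites in at least 6 of 8 libraries gave 53 calls for the other pathway genes, again over more sites. Other counts, IP ones for the 10 genes included, stayed within 1.5 times. For 30 sites named from the fit of 8 libraries, 22 of the 10 genes and 8 of the other pathway genes, the alternatives gave 479 values: none changed sign, and 13 sites lost their call in at least 1. Sites named from the fit of the 4 input libraries alone, those of HMG1 and most of HMG2 included, were not run under other settings. ERG9 +1466 passed on the logit scale and without either WT IP library (adjusted p = 0.0258). Causes were not tested. Depth per site is unknown.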
